A study of Mus musculus with 23 samples.

Results

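The 9 genes described here encode the microsomal enzymes of fatty acid omega-oxidation in mouse liver: Cyp4a10, Cyp4a12a, Cyp4a12b, Cyp4a14, Cyp4a31, Cyp4a32, Cyp4f14 and Cyp4f15, which are cytochrome P450 genes of family 4, and Aldh3a2, the gene of fatty aldehyde dehydrogenase. They were taken by gene name, from a family picked with earlier results of these data known, and are 9 of the 24062 genes in the deposited count files. All 9 were found in the files and all 9 passed the filter on low counts, which kept 14196 genes.

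RNA of 23 liver samples from mice on a mixed B6/129 background was sequenced after polyA capture, with 1 library per sample, and each sample is called a liver below. Mice were wild type (WT) or knockout (KO) for Ehhadh, the gene of the peroxisomal L-bifunctional protein, and were given saline or L-AC. The study named this gene's loss together with medium-chain 3-hydroxydicarboxylic aciduria, and dicarboxylic acids are what omega-oxidation makes. The groups were 7 WT on saline aged 29 to 45 weeks, 5 KO on saline aged 31 to 44 weeks, 6 WT on L-AC aged 28 to 44 weeks and 5 KO on L-AC aged 28 to 38 weeks. L-AC appears in the labels only as that abbreviation. L-aminocarnitine, a compound so abbreviated, is known to inhibit carnitine palmitoyltransferase 2, an enzyme through which long-chain fatty acids reach mitochondrial oxidation. Dose, feeding state and sex are not given in the sources used here, and neither is the construction of the knockout allele. Replicates are separate samples in the labels, which do not state whether each came from its own animal, so p-values measure the spread between these samples.

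In omega-oxidation, a CYP4 enzyme in the endoplasmic reticulum adds a hydroxyl group to the methyl end of a fatty acid. The alcohol is oxidised to an aldehyde and then, by fatty aldehyde dehydrogenase among others, to a dicarboxylic acid, which can be shortened in peroxisomes. CYP4A enzymes act mainly on saturated fatty acids and on arachidonic acid. CYP4F enzymes act on very long-chain fatty acids and on inflammatory lipids such as leukotriene B4. Cyp4a10 and Cyp4a14 are textbook targets of the nuclear receptor PPARA, which is activated by fatty acids, while Cyp4a12a and Cyp4a12b are known for higher expression in males.

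The 6 Cyp4a genes lie together on chromosome 4 of mm10, within 323 kb (chr4:115299046-115622366). Cyp4f15 (chr17:32685659-32703349) and Cyp4f14 (chr17:32905070-32917342) lie on chromosome 17, and Aldh3a2 (chr11:61244755-61267127) on chromosome 11. Some copies are so alike that the origin of a read is in part uncertain. The coding stretch around the cysteine that holds the heme iron of a P450 is compared as an example of likeness. Being shorter than a read, this stretch does not by itself show which reads are uncertain. It is given below as 30 coding bases from GENCODE transcripts on GRCm38, 5′ to 3′ on the gene's strand, with the cysteine codon in capitals. In each gene the stretch is coding exon on either side of an intron, and the first gene on each line is at chr4:115529502-115532543, chr4:115328986-115331846, chr4:115487299-115489805, chr17:32905666-32906065 and chr17:32702398-32702801 in that order, intron included.
Cyp4a10, Cyp4a31 and Cyp4a32: ttctcaggaggagccaggaacTGCattggg
Cyp4a12a and Cyp4a12b: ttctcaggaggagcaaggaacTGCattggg
Cyp4a14: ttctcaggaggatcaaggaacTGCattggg
Cyp4f14: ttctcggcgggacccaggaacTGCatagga
Cyp4f15: ttctccgctgggcccaggaacTGCatagga
The stretch is the same in Cyp4a10, Cyp4a31 and Cyp4a32, and the same in Cyp4a12a and Cyp4a12b. It differs at 1 base between Cyp4a12a and Cyp4a14, at 2 between Cyp4a10 and Cyp4a14, and at 3 between Cyp4f14 and Cyp4f15.

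Over whole coding sequences, Cyp4a12a and Cyp4a12b were 98.6% identical, with 22 differences. Cyp4a10 was 97.2% identical to Cyp4a32 and 96.6% to Cyp4a31. Cyp4a14 was 77.1% identical to Cyp4a10, and Cyp4f14 was 80.7% identical to Cyp4f15. Windows of 100 bases, the read length, were looked up in all other transcripts. Another gene held the same window for 35.8% of those of Cyp4a12a, 36.2% of Cyp4a12b, 18.2% of Cyp4a32, 12.2% of Cyp4a10 and 7.3% of Cyp4a31. No window of Cyp4a14, Cyp4f14, Cyp4f15 or Aldh3a2 was shared, so the counts of these 4 are the least open to misplaced reads. Values of the other 5 are given singly and, for the alike copies, also as sums.

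Each library held 24521896 to 48095959 counted reads. Levels are given in CPM, counts per gene scaled to the size of the library, and levels of different genes are compared only per kilobase of counted exon. Ehhadh, the targeted gene, was lower in KO than in WT: 141.6 ± 64.35 (SD, n = 5) against 954 ± 335.1 CPM (SD, n = 7) under saline, and 1658 ± 286.3 (SD, n = 5) against 13040 ± 1602 CPM (SD, n = 6) under L-AC. No library of 1 genotype reached those of the other within a treatment. Hepatocyte markers were abundant in every library, at a summed level of 47150 CPM or more.

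L-AC was accompanied by a rise of 4 Cyp4a genes and Aldh3a2 and a fall of both Cyp4f genes, in WT and in KO alike. In WT livers, Cyp4a14 rose 3.74-fold, Aldh3a2 2.26-fold, Cyp4a32 2.24-fold, Cyp4a31 1.88-fold and Cyp4a10 1.81-fold, while Cyp4f14 fell 1.9-fold and Cyp4f15 1.55-fold (edgeR quasi-likelihood test, adjusted p under 0.05, adjusted over all genes tested). In KO livers the same test called these 7 genes in the same directions. Cyp4a12a and Cyp4a12b were not called in either genotype. The 5 of 9 genes called higher in WT stand beside 26.6% of all genes tested, and the 2 of 9 called lower beside 26.7%. In KO the corresponding background was 25.2% for higher and 23.6% for lower. The median log2 fold change of the 9 genes was 0.85 in WT and 0.78 in KO, where that of all genes tested was -0.01 in both. Fewer cells of a type and less RNA per cell cannot be told apart in such bulk samples.

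**Figure D1:**
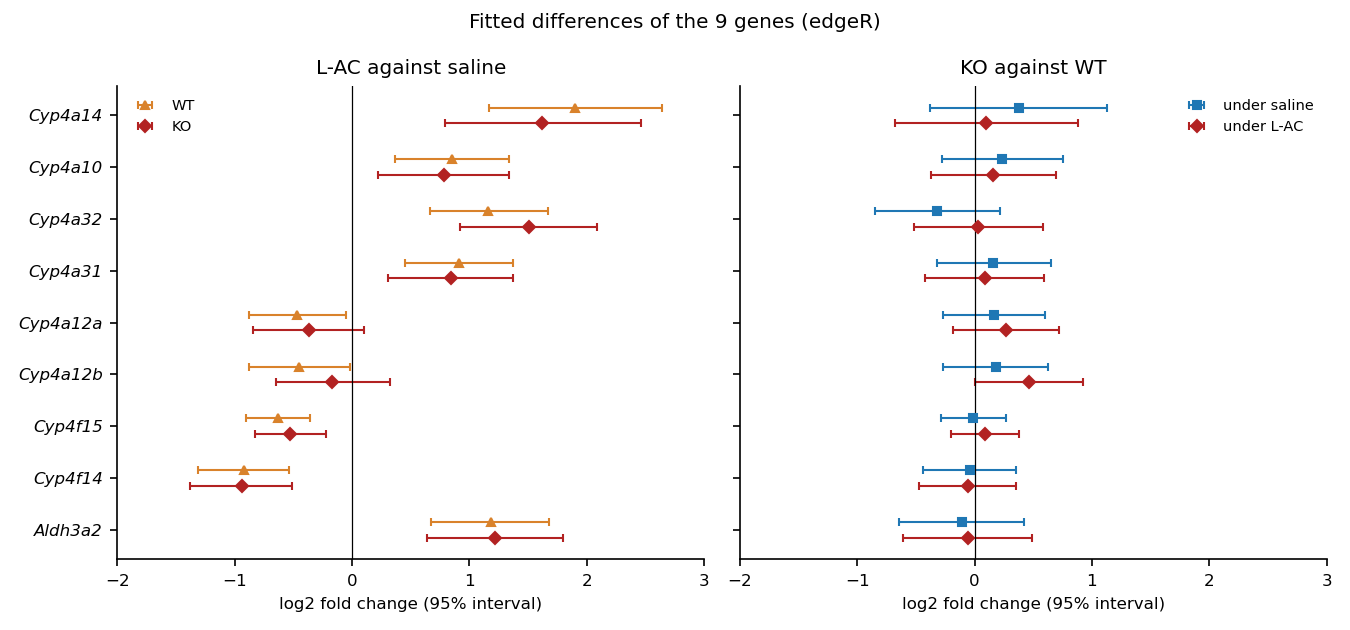
Fitted log2 fold changes of the 9 genes with 95% intervals: L-AC against saline in WT and KO on the left, KO against WT under saline and under L-AC on the right. On the left, 5 genes lie above 0 and both Cyp4f genes below 0 in both genotypes, and on the right every interval spans 0.

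Cyp4a14 had the greatest fitted change of the 9 in both genotypes, though its 95% interval overlapped that of Cyp4a32 in each. In KO the log2 fold changes of these genes were close, at 1.62 and 1.51. Cyp4a14 was also the most variable member in WT on saline. Its level in WT on saline ran from 522.8 CPM through a median of 2200 to 5520 CPM. In WT on L-AC it ran from 6113 through 10670 to 12120 CPM. The ranges did not overlap: all 6 L-AC livers lay above the highest saline liver. The KO livers on saline had 3307, 3350, 4582, 2536 and 3767 CPM. Those on L-AC had 9814, 11510, 11450, 13770 and 7548 CPM, again with no overlap. The log2 fold change was 1.90 (SE 0.354, edgeR adjusted p = 0.000111) in WT and 1.62 (SE 0.406, edgeR adjusted p = 0.00215) in KO. Within WT on saline the highest liver held 10.6 times the lowest, against 1.81 to 1.98 times in the 3 other groups.

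Cyp4a10, its neighbour and the other classical PPARA target of the cluster, rose less. It ran from 1023 through 1852 to 3184 CPM in WT on saline and from 2399 through 4018 to 4566 CPM in WT on L-AC, so that 4 of 6 L-AC livers lay above every saline liver. The KO livers had 2158, 2961, 3114, 1522 and 2493 CPM on saline and 4288, 4478, 4785, 4862 and 2576 CPM on L-AC. Replicate 5 of KO on L-AC was the only one of its group within the saline range. The log2 fold change was 0.85 (SE 0.236, edgeR adjusted p = 0.00426) in WT and 0.78 (SE 0.270, edgeR adjusted p = 0.021) in KO. Without KO saline replicate 4 the KO value was 0.65, with an adjusted p of 0.062.

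Cyp4a32 and Cyp4a31, the close copies of Cyp4a10, are expressed at lower levels. Cyp4a32 ran from 193.2 through 257.3 to 414.2 CPM in WT on saline and from 464.4 through 625.7 to 826 CPM in WT on L-AC, with no overlap. In KO it was 132.6, 275, 329.6, 247.4 and 142.6 CPM on saline and 1141, 513.5, 536.9, 623 and 391.9 CPM on L-AC. All 5 KO livers on L-AC again lay above all 5 on saline, and replicate 1 was the highest of its group. The log2 fold change was 1.16 (SE 0.244, edgeR adjusted p = 0.000389) in WT and 1.51 (SE 0.283, edgeR adjusted p = 0.00014) in KO, and 1.20 in KO without that replicate.

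Cyp4a31 averaged 152.1 ± 55.1 CPM (SD, n = 7) in WT on saline and 285.5 ± 56.67 (SD, n = 6) on L-AC. The KO means were 170.1 ± 45.42 (SD, n = 5) and 303.5 ± 95.71 CPM (SD, n = 5). Its ranges overlapped in both genotypes, by 2 of 6 L-AC livers in WT and 1 of 5 in KO. Its log2 fold change was 0.91 (edgeR adjusted p = 0.00168) in WT and 0.84 (edgeR adjusted p = 0.00977) in KO. The reads of Cyp4a10, Cyp4a31 and Cyp4a32 summed gave 0.90 in WT (SE 0.208, edgeR adjusted p = 0.001) and 0.85 in KO (SE 0.238, edgeR adjusted p = 0.00508), a sum that does not depend on how reads were split between these copies.

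Cyp4a12a and Cyp4a12b, the male-predominant pair, had negative fitted differences that were not called. Cyp4a12a ran from 275.8 through 530.1 to 572.1 CPM in WT on saline and from 266.8 through 353.1 to 537.4 CPM on L-AC. In 6 of 7 saline livers it was at 487.7 CPM or more, and replicate 1 of that group stood alone at 275.8 CPM. The fitted log2 fold change in WT was -0.47 (SE 0.201, edgeR adjusted p = 0.0548). Without WT saline replicate 1 it was -0.57, with an adjusted p of 0.0132, and without WT L-AC replicate 3, the highest of the L-AC livers at 537.4 CPM, it was -0.61, with an adjusted p of 0.013. Cyp4a12b averaged 178.3 ± 24.32 CPM (SD, n = 7) on saline and 130.9 ± 32.79 (SD, n = 6) on L-AC in WT, a log2 fold change of -0.45 (SE 0.208, edgeR adjusted p = 0.0746).

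Summed, the Cyp4a12 pair was called lower in WT, with a log2 fold change of -0.46 (SE 0.184, edgeR adjusted p = 0.0388). This call was lost without any 1 of 9 of the 13 WT libraries, with adjusted p from 0.0528 to 0.0997. In KO, Cyp4a12a was at 389, 546.7, 600.1, 518.6 and 747 CPM on saline and 225.1, 555.5, 402.6, 466.1 and 522.6 CPM on L-AC. The ranges overlapped, and the log2 fold change was -0.37 (SE 0.228, edgeR adjusted p = 0.188). That of Cyp4a12b was -0.17 (edgeR adjusted p = 0.577) and that of the sum -0.31 (edgeR adjusted p = 0.223). KO L-AC replicate 1, the highest in Cyp4a32, was the lowest of all 23 livers in both Cyp4a12 genes, with 225.1 CPM of Cyp4a12a and 73.78 CPM of Cyp4a12b.

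Both Cyp4f genes fell. Cyp4f14, which encodes a leukotriene B4 hydroxylase, ran from 86.26 through 127.5 to 175.1 CPM in WT on saline and from 50.76 through 68.39 to 82.42 CPM on L-AC, with all 6 L-AC livers below every saline liver. The KO livers had 143.4, 138.3, 113.1, 105.9 and 124.2 CPM on saline and 45.16, 55.61, 47.09, 68.81 and 108.7 CPM on L-AC. Replicate 5 of KO on L-AC, the lowest of its group in Cyp4a10, was the highest in Cyp4f14 and the only one to reach the saline range. The log2 fold change was -0.92 (SE 0.186, edgeR adjusted p = 0.000254) in WT and -0.94 (SE 0.210, edgeR adjusted p = 0.000797) in KO.

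Cyp4f15 was the steadiest member under saline, at 173.8 ± 17.27 CPM (SD, n = 7) in WT and 172.5 ± 15.62 (SD, n = 5) in KO. It was at 112.5 ± 22.43 CPM (SD, n = 6) in WT and 119.8 ± 27.17 (SD, n = 5) in KO on L-AC. The log2 fold change was -0.63 (SE 0.130, edgeR adjusted p = 0.000345) in WT, with no overlap, and -0.53 (SE 0.147, edgeR adjusted p = 0.00525) in KO, where the ranges overlapped.

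Aldh3a2 carries the aldehyde step and has neither a near-identical copy nor the P450 fold, and rose with the Cyp4a genes. It ran from 324.4 through 702.9 to 985.5 CPM in WT on saline and from 982.8 through 1521 to 2457 CPM on L-AC, with 5 of 6 L-AC livers above every saline liver. The KO livers had 552.4, 629.8, 611.4, 841.4 and 627.8 CPM on saline and 1106, 2382, 1442, 1645 and 1025 CPM on L-AC, with no overlap. The log2 fold change was 1.18 (SE 0.243, edgeR adjusted p = 0.000338) in WT and 1.22 (SE 0.280, edgeR adjusted p = 0.00103) in KO. In all, the group ranges did not overlap for 4 of the 9 genes in WT, beside 24.1% of all genes tested, and for 3 of 9 in KO, beside 32.6%.

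**Figure D2:**
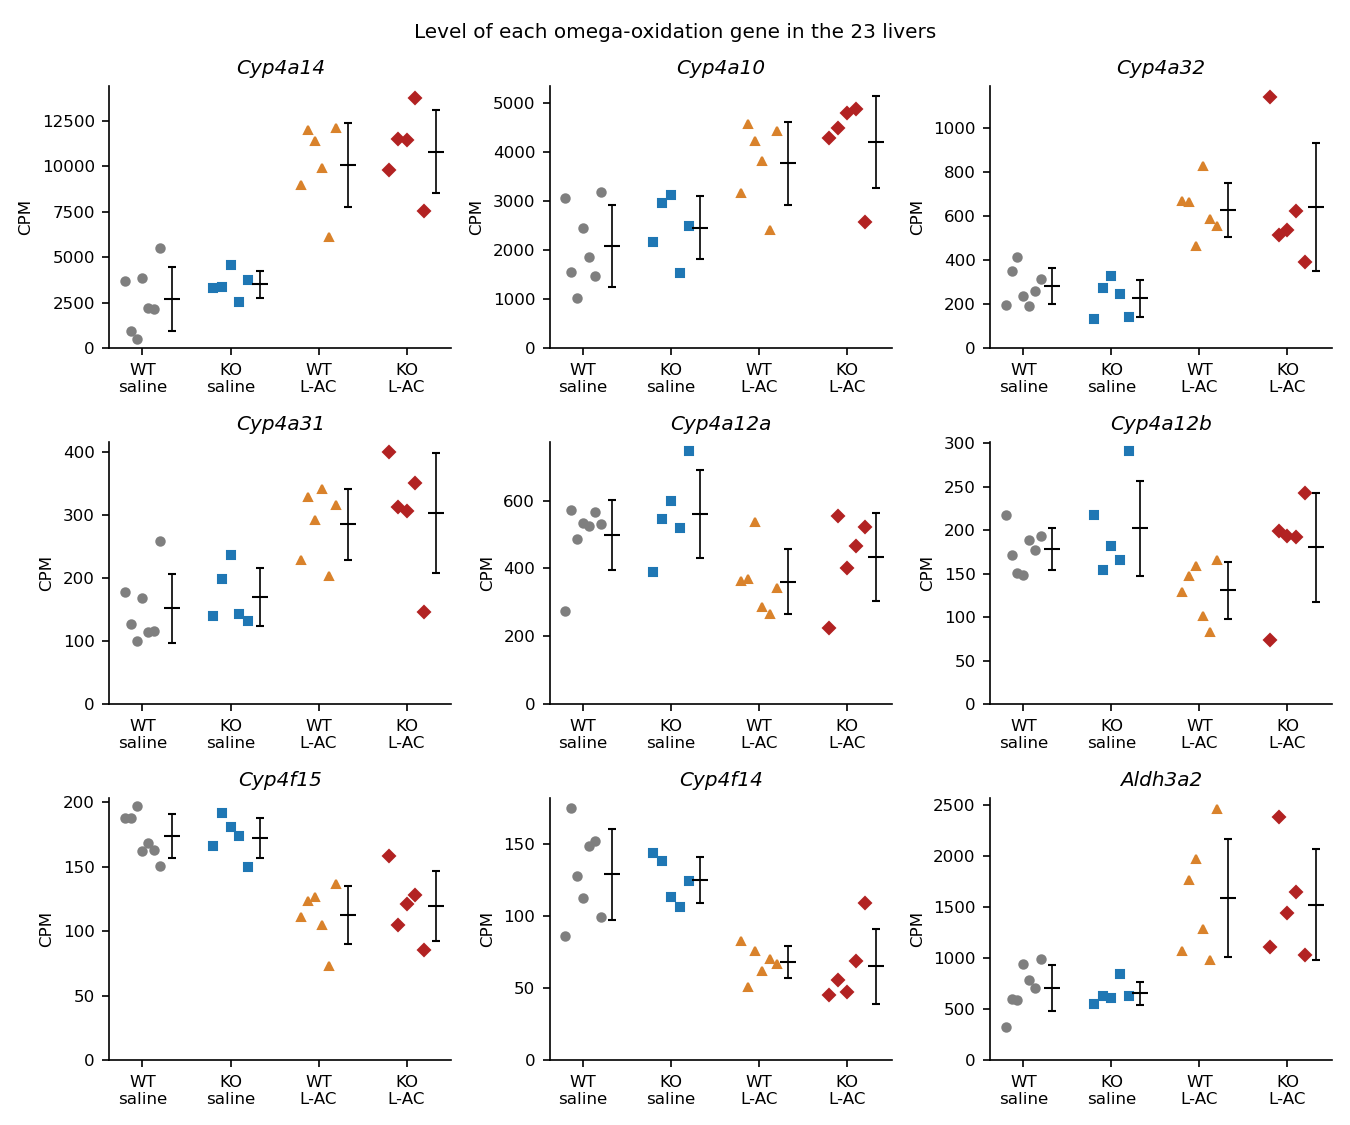
Level of each gene in CPM (linear axes from 0), with 1 point per liver and, at the right of each group, the mean and SD. Cyp4a14 and Cyp4a32 on L-AC lie above every saline liver of the same genotype, and KO L-AC replicate 1, the first diamond, is highest in Cyp4a32 at 1141 CPM and lowest in Cyp4a12b at 73.78 CPM.

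Per kilobase of exon, Cyp4a14 and Cyp4a10 were the leading members in every group. On saline in WT they were at 1083 ± 706.3 and 997.8 ± 398.9 CPM per kilobase (SD, n = 7), and their ranges overlapped. Aldh3a2 followed at 224.3 ± 72.52, Cyp4a12a at 206 ± 42.27 and Cyp4a32 at 146.5 ± 43.13 CPM per kilobase. The range of Aldh3a2 overlapped that of Cyp4a12a, and that of Cyp4a12a overlapped that of Cyp4a32. Then came Cyp4f15 at 81.5 ± 8.099, Cyp4a12b at 74.44 ± 10.15, Cyp4a31 at 60.62 ± 21.96 and Cyp4f14 at 53.52 ± 13.15 CPM per kilobase, which overlapped in turn. Of these 4, Cyp4a31 alone, which reached 103 CPM per kilobase, also overlapped the range of Cyp4a32. In KO on saline the order was that of WT save that Cyp4a12a came above Aldh3a2 and Cyp4a12b above Cyp4f15, both with overlapping ranges.

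On L-AC Cyp4a14 and Cyp4a10 kept the top of the order but no longer overlapped, and the order changed in the middle. Cyp4a14 stood at 4047 ± 926.2 CPM per kilobase in WT (SD, n = 6) and 4335 ± 924 in KO (SD, n = 5), above the whole range of Cyp4a10 at 1804 ± 402.8 and 2012 ± 448.5. Aldh3a2 came next at 506.6 ± 183.7 in WT and 485.5 ± 173.6 in KO, and Cyp4a32, at 327.8 ± 64.31 and 335.1 ± 152.2, passed Cyp4a12a, at 149.1 ± 39.58 and 179.4 ± 53.94 CPM per kilobase, though the ranges of these genes overlapped in KO. Cyp4f14 remained last, at 28.23 ± 4.576 in WT and 27.04 ± 10.84 CPM per kilobase in KO. Cyp4a14 made up 33.3% ± 12.6 (SD, n = 7) of the summed level of the 9 genes per kilobase in WT on saline and 57.0% ± 1.39 (SD, n = 6) on L-AC. In KO its share was 41.0% ± 2.83 (SD, n = 5) on saline and 56.8% ± 2.31 (SD, n = 5) on L-AC.

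**Figure D3:**
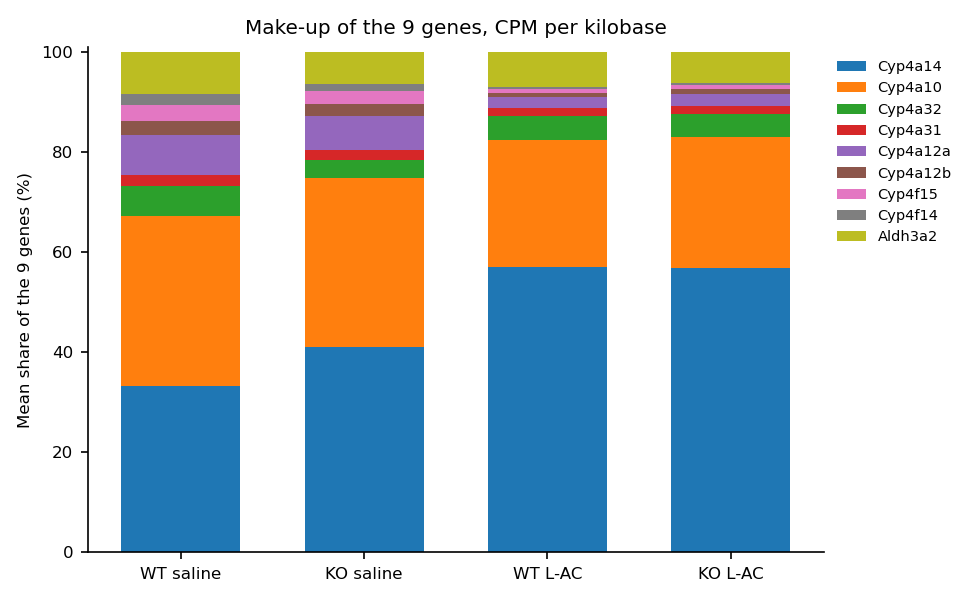
Mean share in % of each gene in the summed level of the 9 genes, in CPM per kilobase, for the 4 groups. Cyp4a14 and Cyp4a10 make up most of each bar, and the share of Cyp4a14 goes from 33.3% to 57.0% in WT and from 41.0% to 56.8% in KO.

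The change was thus unequal between neighbours in the cluster. The ratio of Cyp4a14 to Cyp4a10 within a liver, per kilobase, was 0.993 ± 0.393 (SD, n = 7; range 0.427 to 1.45) in WT on saline and 2.24 ± 0.0922 (SD, n = 6; range 2.13 to 2.39) on L-AC. In KO it was 1.22 ± 0.166 (SD, n = 5) on saline and 2.18 ± 0.23 (SD, n = 5) on L-AC. Every L-AC liver had a higher ratio than every saline liver of its genotype. The mean log2 ratio differed by 1.30 in WT (exact permutation test, two-sided, p = 0.00117, adjusted p = 0.00702 over 6 comparisons) and by 0.84 in KO (exact p = 0.00794, adjusted p = 0.0238), each p being the smallest that these group sizes allow. These tests were added after the values were seen.

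The pair of near-identical copies gave another picture. The ratio of Cyp4a12a to Cyp4a12b was 2.85 ± 0.764 (SD, n = 7) on saline and 2.77 ± 0.465 (SD, n = 6) on L-AC in WT, a difference in mean log2 ratio of 0.01 (exact permutation p = 0.994, adjusted p = 0.994). In KO the difference was -0.17 (exact permutation p = 0.421, adjusted p = 0.631). WT saline replicate 1 had the lowest ratio of its group, 1.25, its low Cyp4a12a standing beside the highest Cyp4a12b of that group at 217.5 CPM. The ratio of Cyp4a10 to Cyp4a32 varied most, from 2.27 to 16 over the livers on saline. Its log2 difference between L-AC and saline was -0.27 in WT (exact permutation p = 0.529, adjusted p = 0.635) and -0.71 in KO (exact permutation p = 0.0952, adjusted p = 0.19).

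No member was called different between KO and WT. Under saline 0 of 9 genes were called, as were 0 of 9 under L-AC, by edgeR and also by DESeq2, and 0 of 9 had an unadjusted p under 0.05 in either comparison. Of all genes tested, 0.0141% were called in each. Under saline the fitted log2 differences, KO minus WT, ran from -0.32 for Cyp4a32 to 0.38 for Cyp4a14, and the 95% intervals of the 9 genes together spanned KO levels of 0.555 to 2.19 times those of WT. Under L-AC they ran from -0.06 for Cyp4f14 and Aldh3a2 to 0.46 for Cyp4a12b, with intervals spanning 0.623 to 1.9 times. The narrowest was that of Cyp4f15, at 0.817 to 1.21 times under saline, and the widest that of Cyp4a14, at 0.77 to 2.19 times.

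Cyp4a12b came closest to a genotype difference. Under L-AC it was at 128.6, 147, 159.3, 101.8, 83.25 and 165.4 CPM in the 6 WT livers and at 73.78, 199.6, 192.8, 191.6 and 242.6 CPM in the KO livers. Thus 4 of 5 KO livers lay above every WT liver, and replicate 1 lay below every one. In the edgeR fit the unadjusted p was 0.0516 and the adjusted p 1.0. No difference between the genotypes in the response to L-AC was called either. The interaction test called 0 of 9 genes by edgeR and by DESeq2, 0 of 9 had an unadjusted p under 0.05, and 0.0% of all genes tested were called. The ratio of the KO response to the WT response had 95% intervals reaching from 0.388 times for Cyp4a14 to 2.16 times for Cyp4a32. The interval of Cyp4f15 was the narrowest, at 0.811 to 1.42 times.

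Within groups, the members did not vary as 1 unit. After each group's mean log2 CPM was subtracted, Cyp4a14 and Cyp4a10 moved together over the 23 livers (Pearson r = 0.86, Spearman rho = 0.89), with r from 0.87 to 0.99 in the 4 groups taken singly. Cyp4a10 and Cyp4a31 also moved together (r = 0.85, rho = 0.81). Cyp4a32 did not follow Cyp4a10, despite their 97.2% identity (r = -0.04, rho = 0.01), and was opposed to Cyp4a12b (r = -0.72, rho = -0.70), with a negative r in each of the 4 groups. Cyp4a31 and Cyp4f14 were opposed as well (r = -0.70, rho = -0.64). The points share libraries, scaling and, for the copies, reads that fit more than 1 gene, so these values are a description and carry no test.

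**Figure D4:**
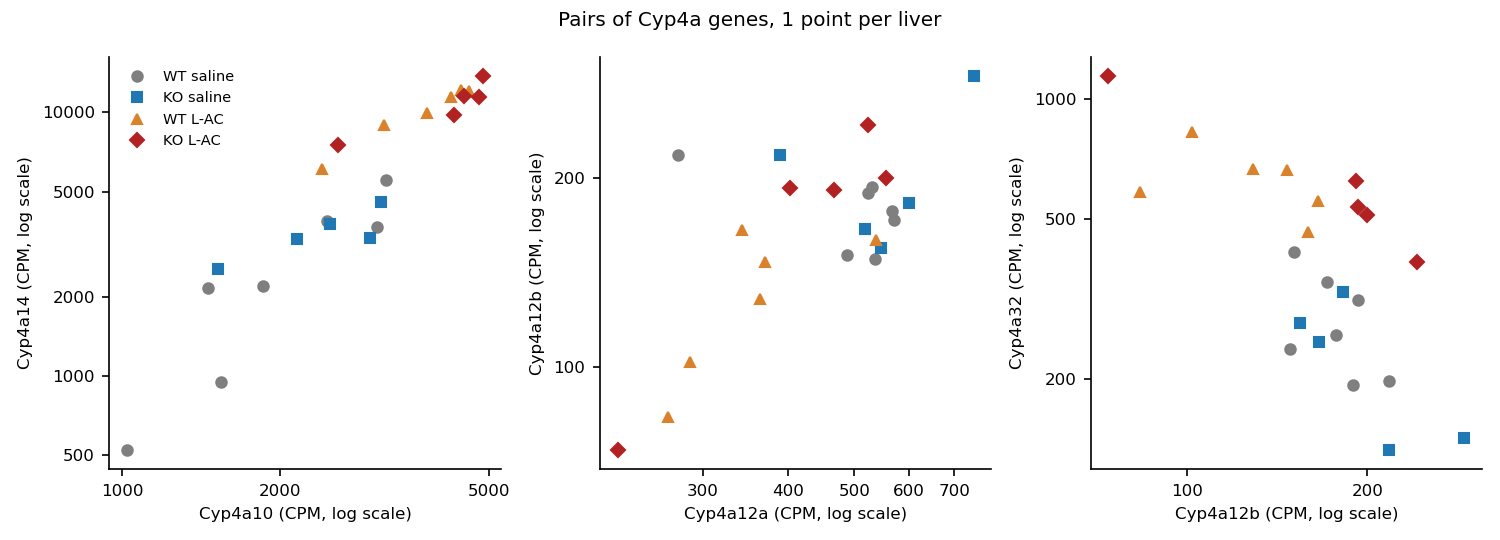
Levels in CPM of pairs of Cyp4a genes on log axes, with 1 point per liver and a symbol per group. Cyp4a14 and Cyp4a10 lie along a rising line within each group, Cyp4a12b and Cyp4a12a are more scattered, and Cyp4a32 is high where Cyp4a12b is low, as in the KO L-AC liver at 73.78 and 1141 CPM.

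Predicted transcripts (Gm, Rik or LOC names) were left out here. Among 11398 genes at a mean of 1 CPM or more, the 3 with the pattern most like each of 5 members were picked by Pearson r within groups over the 23 livers. For Cyp4a14 they were Cyp4a10, Cyb5d1 (r = 0.77) and Nadk (r = 0.77), the kinase that makes NADP, though Cyb5d1 had r = 0.54 without WT saline replicate 3. For Cyp4a10 they were Cyp4a14, Cyp4a31 and Sptlc1 (r = 0.78), a subunit of the first enzyme of sphingolipid synthesis. Cyp4a12a was most like Akr1c20 (r = 0.86), Fuca1 (r = 0.85) and Syt3 (r = 0.83), which fell to 0.70, 0.68 and 0.68 without the pair of livers farthest from the median. Cyp4f14 was most like Cyp2c29 (r = 0.89), another microsomal P450, Rgn (r = 0.83) and Sumo3 (r = 0.83). Aldh3a2 was most like Dhrs4 (r = 0.90), a carbonyl reductase, Itfg3 (r = 0.89) and Blvrb (r = 0.89), the biliverdin reductase B gene. Being the highest of 11398 values for each member, these r values are high in part through the choice, and they carry no test.

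Lists of genes around the pathway are set beside the share of all genes tested that L-AC changed in either direction, 53.3% in WT and 48.8% in KO. Of 8 other Cyp4 genes tested, 2 were called higher and 2 lower in WT, and 3 higher and 2 lower in KO, which is near that background. Cyp4f17 rose (log2 fold change 1.25, edgeR adjusted p = 1.72e-06 in WT), as did Cyp4f39 (1.15, adjusted p = 0.000885) at only 0.6641 ± 0.19 CPM (SD, n = 7) on saline. Cyp4v3, a fatty acid hydroxylase, fell (-0.65, edgeR adjusted p = 6.33e-06), as did Cyp4f13 (-0.39, adjusted p = 2.5e-05). Cyp4f16, named after its value was seen, was called in KO (0.84) and not in WT (0.30), and the interaction test called no gene.

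The electron donors did not move as a group. Por, the reductase that supplies microsomal P450s with electrons, rose from 354.4 ± 180 CPM (SD, n = 7) on saline to 1206 ± 273 (SD, n = 6) on L-AC in WT (log2 fold change 1.77, edgeR adjusted p = 2.05e-06) and by 1.86 in KO. The other donors called were lower in WT: Cyb5b, the outer mitochondrial membrane cytochrome b5 (-1.12, edgeR adjusted p = 1.8e-07), Cyb5, the microsomal cytochrome b5 (-0.48, adjusted p = 0.00025), and Cyb5r3, its reductase (-0.51, adjusted p = 0.0173). In both genotypes 1 of 5 was called higher and 3 lower.

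The other dehydrogenases of alcohols and aldehydes went mostly against Aldh3a2. Of 11 tested, 8 were called lower and 1 higher in each genotype. Beside these stand 26.7% of all genes tested called lower in WT and 23.6% in KO. The median log2 fold change of the 11 was -0.75 in WT and -0.76 in KO. Adh4 fell from 117.7 ± 16.6 (SD, n = 7) to 30.01 ± 3.37 CPM (SD, n = 6) in WT (log2 fold change -1.97, edgeR adjusted p = 2.2e-11). Adh1, the main liver alcohol dehydrogenase, fell by 1.28 on the log2 scale, Aldh1a1, a retinaldehyde dehydrogenase, by 1.84 and the mitochondrial Aldh1b1 by 2.69 in WT (edgeR adjusted p from 4.03e-07 to 8.66e-07). The 1 called higher was Adh7 (1.36 in WT), named after its value was seen.

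Genes that take dicarboxylic acids onward rose in larger part. Of 17 genes of their activation and peroxisomal breakdown, 12 were called higher and 1 lower in WT, and 13 higher and 1 lower in KO. Beside these stand 26.6% of all genes tested called higher in WT and 25.2% in KO. The median log2 fold change of the 17 genes was 1.19 in WT and 1.18 in KO. Besides Ehhadh itself (3.77 in WT), the named ones were Abcd3, the peroxisomal importer of dicarboxylic and branched fatty acids (1.19 in WT, edgeR adjusted p = 4.75e-09), and Crat, carnitine acetyltransferase (1.68, adjusted p = 6.54e-09). Their KO values were 1.18 and 1.48. The exception was Abcd2 (-1.30 in WT), a transporter of very long-chain fatty acids, named after its value was seen.

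Targets of PPARA outside the pathway also rose: 15 of 19 were called higher in WT and 14 in KO, beside 26.6% and 25.2% of all genes tested. The others were not called in either direction. The median log2 fold change was 0.84 in WT and 0.88 in KO. Pdk4, a kinase that shuts off pyruvate dehydrogenase, changed by 5.46 and 5.57, and Cidec, a lipid droplet protein, by 4.60 and 5.34 on the log2 scale in WT and KO. Plin2, another droplet protein, changed by 2.54 and 2.68, and Acadl, a mitochondrial acyl-CoA dehydrogenase, by 0.87 and 0.88. Cyp4a14, at 1.90 and 1.62, lay between these.

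The regulators themselves moved both ways. Of 21 tested, 6 were called higher and 7 lower in WT, and 2 higher and 9 lower in KO, with a median of -0.18 in both. The called shares, 61.9% and 52.4%, stand beside 53.3% and 48.8% of all genes tested. Nr0b2, the small heterodimer partner, had the greatest fall, from 77.14 ± 25.3 (SD, n = 7) to 4.795 ± 3.16 CPM (SD, n = 6) in WT (-4.00, edgeR adjusted p = 2.28e-06). Stat5b, which carries growth hormone signals behind male-predominant liver genes, fell by 0.74 on the log2 scale in WT (edgeR adjusted p = 2.41e-07). Rora (0.52) and the coactivator Ppargc1b (1.14) rose in WT, with edgeR adjusted p of 0.000581 and 0.000586. In KO, Ppargc1b was called higher (1.06, edgeR adjusted p = 0.00402) and Rora was not called (0.28, edgeR adjusted p = 0.0788).

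**Figure D5:**
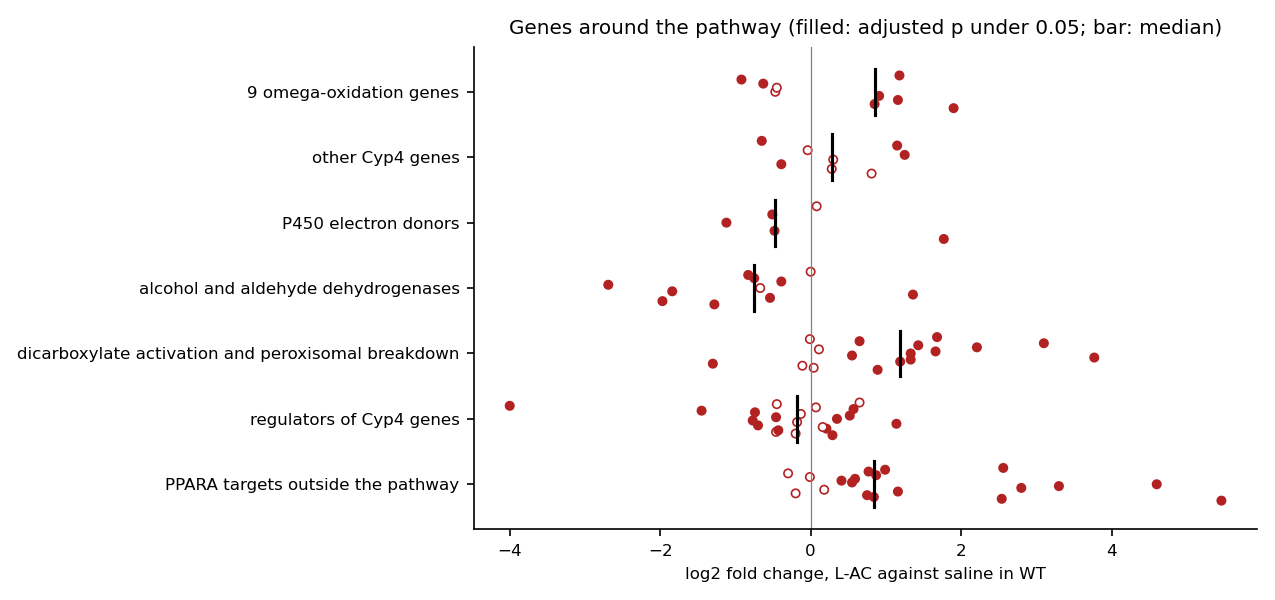
Log2 fold change of L-AC against saline in WT for each gene tested of the 9 members and of 6 lists around the pathway, with filled points at an adjusted p under 0.05 and a bar at the median. Genes of dicarboxylate breakdown and PPARA targets lie mostly to the right, other alcohol and aldehyde dehydrogenases mostly to the left.

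Male-biased liver genes, a list to which the Cyp4a12 genes are akin, were called lower for 13 of 18 and higher for 1 in WT, and lower for 11 and higher for 1 in KO. Of all genes tested, 26.7% were called lower in WT and 23.6% in KO. Hsd3b5, a steroid dehydrogenase, had the greatest fall of those named (-4.48 in WT, edgeR adjusted p = 4.99e-07), followed by the complement gene C8a (-1.32), Susd4 (-1.09) and C8b (-0.97). Of 15 female-biased genes 4 were called higher and 3 lower in WT, and 3 higher and 1 lower in KO. These shares, 46.7% and 26.7%, lay below the 53.3% and 48.8% of all genes tested. Their median log2 fold change was -0.62 in WT and -0.66 in KO, with 6 and 5 of the 15 above 0. The male-biased list also had a negative median, -0.93 and -1.03. Among the female-biased genes, Cyp2b10 (3.97 in WT) and Acot3 (2.21) were higher. Acot3 is also in the list of dicarboxylate activation and peroxisomal breakdown, so its rise is counted in both lists. Atp6v0d2 (-3.56) was lower, from only 1.964 ± 2.09 CPM (SD, n = 7) on saline. Of the 81 genes tested in the 6 lists around the pathway, Ehhadh alone was called in KO against WT, under saline and under L-AC (edgeR adjusted p of 1.94e-06 and 6.87e-07).

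Promoter windows of RefSeq on GRCm38.p6, 250 bases before to 50 after the start of transcription, were on hand for 4 of the 9 genes. They were searched on both strands for the DR1 element, a direct repeat of AGGTCA with 1 base between, written AGGTCANAGGTCA, which PPARA binds as a partner of RXR. The closest match had 3 mismatches in Cyp4a32 and in Aldh3a2, both of which rose, and 4 in Cyp4f14 and in Cyp4f15, both of which fell. Of 32851 windows of the same length, 24.6% held a match with at most 3 mismatches and 79.8% one with at most 4, so matches this loose are common. The matches of the rising genes are shown with 10 bases on either side on the gene's strand, the match in capitals. The first, at chr4:115600831-115600863, reads the element on the other strand and begins 97 bases before the start. The second, at chr11:61267225-61267257, begins 61 bases before it.
Cyp4a32: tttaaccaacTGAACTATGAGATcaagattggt
Aldh3a2: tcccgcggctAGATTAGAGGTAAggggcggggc

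Markers of the cells of the liver are set beside the same background, 53.3% of all genes tested called in WT and 48.8% in KO. The called shares were 66.7% and 66.7% for hepatocyte markers, in WT and KO. They were 80.0% and 60.0% for pericentral markers and 77.8% and 55.6% for periportal markers. The summed level of 12 hepatocyte markers was 81340 to 94460 CPM in WT on saline and 61090 to 70590 on L-AC, and 89010 to 98010 and 47150 to 74250 CPM in KO. In WT, 6 of the 12 were called lower and 2 higher. The 10 pericentral markers, of the hepatocytes around the central vein, summed to 11080 to 14200 CPM on saline and 6889 to 8765 on L-AC in WT, and to 10790 to 13750 and 3734 to 8743 CPM in KO. The 9 periportal markers summed to 6735 to 10170 and 6477 to 8468 CPM in WT, and 7393 to 9566 and 6252 to 8028 CPM in KO, so their summed ranges overlapped. Singly, 5 of the 9 periportal markers were called lower and 2 higher in WT and 4 lower and 1 higher in KO, with a median log2 fold change of -0.94 and -0.70. Of the 10 pericentral markers 8 were called lower in WT and 6 in KO, with a median of -1.05 and -0.98. No marker of these 3 lists was at 0 in any group. Their part in the results for the 9 genes was not tested.

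Non-hepatocyte markers were far lower. The 9 macrophage markers summed to 80.16 to 265.7 CPM on saline and 60.9 to 110.8 on L-AC in WT, and to 102.6 to 214.4 and 50.98 to 167.5 CPM in KO, with 6 called lower and 1 higher in WT. Of the other lists in WT, 4 of 5 lymphocyte markers tested were called lower and 1 higher, and 1 each of 5 cholangiocyte, 7 endothelial and 5 erythroid markers was called lower. The stellate cell markers, 7 genes, summed to 110.3 to 183.5 CPM on saline and 173.7 to 228.6 on L-AC in WT, with 4 called higher and 1 lower. In KO they summed to 84.48 to 210.7 CPM on saline and 153.2 to 198.7 on L-AC, with 2 called higher and 1 lower. Their median log2 fold change was 0.43 in WT and 0.10 in KO. Their called shares were 71.4% in WT and 42.9% in KO, beside 53.3% and 48.8% of all genes tested. Markers of kidney proximal tubule, where Cyp4a genes are also expressed, summed to 5.618 to 11.18 CPM over all groups, with Slc5a12 listed at 0 in every library.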

How the data were processed

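The deposited files hold raw counts of reads per gene for 23 mouse liver libraries. Per the submitters' processing notes, the authors used STAR 2.4.0 and the mm10 (GRCm38) build. Per the file headers, featureCounts 1.4.4 counted primary alignments over exons by gene, without regard to strand, and gave a read to each gene it touched. A read that fitted several copies was thus counted at 1 of them. No exon of the 9 genes overlaps another gene.

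Genes were kept by filterByExpr (minimum count 10, minimum total 15), which left 14196 of 24062 genes. After TMM scaling, edgeR 4.0.16 in R 4.3.3 fitted a mean for each group, with all 23 libraries sharing the estimate of spread, and contrasts were tested by quasi-likelihood. All p-values are two-sided. Those of edgeR were adjusted by Benjamini-Hochberg over all genes tested, and called under 0.05. Those of the ratios within a liver are from exact permutation tests, adjusted over 6 comparisons. SE is the size of the log2 fold change over the square root of the F statistic. In each of 56 pairs of replicates the counts differed well beyond sampling noise (chi-square over degrees of freedom of 44.1 or more), so none was counted as the same library. Reads of near-identical copies were also summed and refitted.

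The genes named are the 9 members, up to 4 called genes of each other list with the smallest p for L-AC in WT, and the 3 genes most like each of 5 members within groups. A gene that this rule takes is not reported here. Others are said to be named after their values were seen. The members and lists were chosen with earlier results of these data known. Cyb5 and Emr1 are the names in the files of Cyb5a and Adgre1. Alternatives were DESeq2 1.42.0, its size factors in edgeR, no filter on low counts, only the groups compared, age as a covariate, and each library left out in turn.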

Additional observations from a re-analysis of the deposited data

Results flagged for a closer look

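In 5 of 44 sets of a gene or summed copies and a group, the highest or lowest liver stood far from the rest of its group, and chance flags about 1 in 20 groups. Cyp4a10 in KO L-AC replicate 5 was the lowest of its group at 2576 CPM, and so was the sum of Cyp4a10, Cyp4a31 and Cyp4a32 in that library at 3116 CPM. Cyp4a12a in WT saline replicate 1 was the lowest of its group at 275.8 CPM, and so was the sum of Cyp4a12a and Cyp4a12b at 493.2 CPM. Aldh3a2 in KO saline replicate 4 was the highest of its group at 841.4 CPM. The sums hold the reads of the single genes and are not separate findings.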

How the results depend on the processing

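Of 1251 values of single genes under alternatives, 1242 kept their direction or stayed uncalled, 1 lost its call, 8 gained one and 0 were called in the other direction. The 5 genes called higher in WT were 5 in every alternative, and in KO 4 to 5 when a library was left out. The 2 called lower in WT became 4 when only the groups compared were fitted and 3 with DESeq2, and ranged from 2 to 4 when a library was left out, with 4 without KO L-AC replicate 1; the added calls were Cyp4a12a and Cyp4a12b. The call of the summed Cyp4a12 pair in WT was lost for Cyp4a12a alone (-0.47) and Cyp4a12b alone (-0.45), and its log2 fold change ranged from -0.59 to -0.38 without 1 library. The likeness of Cyp4a14 and Cyb5d1 ranged from 0.54, without WT saline replicate 3, to 0.81. Uncalled values changed sign for 6 of 9 genes in KO against WT under L-AC and in the interaction, for 2 under saline, and for Cyp4a12b with L-AC in KO, which ranged from -0.30 to 0.03 without 1 library. The cause of these changes was not tested. No paired analysis was possible because the labels carry no replicate numbers, and the numbers used here only name libraries within a group in accession order. Depth was at least 24521896 reads a library, and reads that fit more than 1 Cyp4a copy limit the values of single copies.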
